A study of Mus musculus with 8 samples.

Results

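The IL-6 family cytokine genes Il6, Lif and Osm and the receptor chain genes Il6ra and Il6st were taken by name, 5 genes out of 30284 with a value. All 5 were among the 13009 genes tested, meaning that 2 or more libraries had 1 TPM or more. The libraries were made from total RNA of macrophages, called peripheral in the labels, of male C57BL6 mice aged 7 weeks, with no genetic change named in the labels, and the stimuli were given into the peritoneum. There were 2 libraries in each of 4 groups: IFNb for 4 h and then LPS for 4 h (called LPS+IFNb), LPS for 4 h, IFNb for 4 h, and saline for 4 h. LPS, lipopolysaccharide, is the outer membrane component of Gram-negative bacteria that TLR4 senses, and IFNb is the type I interferon interferon beta. Cells of the LPS+IFNb group were thus collected later after IFNb than those of the IFNb group, and no group had IFNb followed by saline, so priming and time since IFNb cannot be told apart. The series title names priming by IFNb of the LPS-driven cytokine response as its question. Whether a group's 2 libraries came from separate mice is not stated, so the p-values reflect library-to-library spread that may be technical. Values are TPM, the transcript share scaled to a fixed total, a level corrected for transcript length that sums to the same total in each library, so read depth is unknown.

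Cytokines of the IL-6 family signal through gp130, the shared receptor chain encoded by Il6st. IL-6 first binds its own receptor chain, encoded by Il6ra, and that complex engages gp130. LIF engages gp130 together with the LIF receptor, and mouse OSM mainly does so with the OSM receptor chain. Engaged gp130 activates JAK kinases and STAT3, and the STAT3 target SOCS3 binds gp130 and ends the signal. Activated macrophages are a main source of IL-6, an inducer of the acute phase response in liver.

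The libraries carried macrophage genes at high levels. Cd68 was at 2694 to 3367 TPM and the lysozyme gene Lyz2 at 10160 to 17557 TPM over the 8 libraries, while Gata6, the factor that defines large peritoneal macrophages, was at 0.862 to 2.11 TPM. Markers of other cells were present. The summed TPM of 8 neutrophil markers was 204 to 309 over the 8 libraries. It was 55.1 to 96.8 for 8 mast cell markers and 12.7 to 29.5 for 8 T and NK cell markers. The summed TPM of 8 B cell markers was 63.5 and 81.4 in LPS+IFNb, 79.0 and 69.9 in LPS, 86.4 and 85.7 in IFNb and 154 and 144 in saline. The summed TPM of 10 mesothelial and fibroblast markers differed within groups, at 97.0 and 46.3 in LPS+IFNb, 51.5 and 121 in LPS, 116 and 59.8 in IFNb and 45.9 and 133 in saline, and none of its 9 tested genes was called in any comparison with saline. The summed TPM of 7 monocyte and small peritoneal macrophage markers was 587 and 638 in LPS+IFNb, 156 and 167 in LPS, 713 and 837 in IFNb and 89.0 and 81.1 in saline. The mesothelial and fibroblast sum was used as a covariate in a fit added after seeing the data. The part of the B cell, monocyte, neutrophil, mast cell and T and NK cell markers in the results on the members was not tested. Scaling each library by the median ratio of all genes in place of the TPM total raised the median log2 difference over the 13009 genes relative to saline by 0.67 for LPS+IFNb, 0.43 for LPS and 0.36 for IFNb. The shift was 0.25 for LPS+IFNb relative to LPS, 0.31 for LPS+IFNb relative to IFNb, 0.06 for LPS relative to IFNb and -0.12 for the interaction. Differences below are log2 differences of TPM + 1 with the standard error from limma, a scale that understates the change of low genes.

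The 3 cytokine genes were higher and the 2 receptor chain genes lower after LPS, with or without IFNb before it. Il6st kept its direction but not its call with median-ratio scaling. In LPS against saline 3 of the 5 members were higher and 2 lower, where 12.8% of all genes tested were higher and 41.3% lower (54.1% called). The members' median difference was 0.96 and that of all genes -0.38. In LPS+IFNb against saline the members again divided into 3 higher and 2 lower, where 15.2% of all genes were higher and 54.1% lower (69.4% called), with a median of 1.05 for the members and -0.62 for all genes. The number lower among the members was close to the share lower among all genes in both comparisons. These comparisons share the saline libraries. In bulk RNA, fewer cells of a type and less RNA per cell cannot be told apart.

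**Figure D1:**
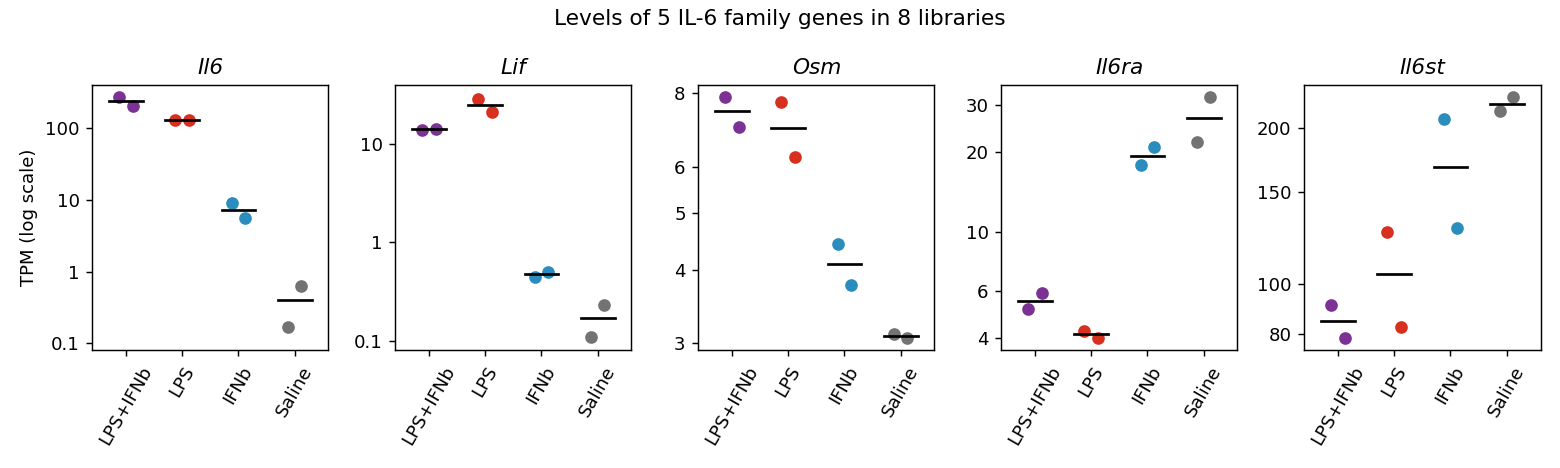
TPM of Il6, Lif, Osm, Il6ra and Il6st on a log axis in each of the 8 libraries (points), with the mean of each group of 2 (lines). The cytokine genes are higher and the receptor chain genes lower in the LPS+IFNb and LPS groups than in saline, and Lif is the one member with both LPS+IFNb libraries below both LPS libraries.

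Il6, which encodes the pyrogenic cytokine IL-6, lies on the plus strand at chr5:30013114-30019981 (GRCm38, GENCODE M21). The 250 bases before its RefSeq start, chr5:30012864-30013113 on the plus strand, are shown because this is the member with the greatest rise. Capitals mark matches on either strand to the NF-kB motif (GGG and CC with any 5 bases between, or a strict form in which A, any base and TTT stand between), TTNNGNAA (C/EBP), TGANTCA (AP-1), TGACGTCA (CRE), the ISRE (GAAA, any 2 bases, GAAA) and TTCNNNGAA (GAS).
Il6: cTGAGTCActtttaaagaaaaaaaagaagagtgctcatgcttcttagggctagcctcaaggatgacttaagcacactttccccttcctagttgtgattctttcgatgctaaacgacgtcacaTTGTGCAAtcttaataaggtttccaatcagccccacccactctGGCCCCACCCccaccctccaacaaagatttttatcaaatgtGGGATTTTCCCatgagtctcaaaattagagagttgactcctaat
The strict NF-kB motif, a form chosen after the sequence had been seen, matched at positions -44 to -35 from the start (GGGATTTTCC) and is in 0.36% of the 32851 promoters of the same length. The looser motif is in 45.8% of them and matched 3 times, of which 2 overlap at the strict match. The C/EBP motif matched at -128 to -121 (TTGTGCAA; in 36.9% of promoters) and the AP-1 motif at -249 to -243 (TGAGTCA; in 6.75%). No exact match to the CRE, ISRE or GAS letters was in this window. Near matches were not searched, and the stretch cgacgtca shortly before the C/EBP match differs from TGACGTCA in its first base only. A match is a description of the letters only.

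Il6 was at 269 and 205 TPM in the LPS+IFNb libraries, 131 and 129 TPM in LPS, 8.95 and 5.62 TPM in IFNb and 0.168 and 0.635 TPM in saline. No 2 groups overlapped, and the order of levels was LPS+IFNb, LPS, IFNb and saline. The mean level was 237 ± 45.9 TPM in LPS+IFNb, 130.3 ± 1.63 TPM in LPS, 7.28 ± 2.35 TPM in IFNb and 0.402 ± 0.330 TPM in saline (SD, n = 2 each). Il6 was among the highest tested genes after LPS and among the lowest in saline. Its group mean stood above 94.5% of them in LPS+IFNb, 91.2% in LPS, 42.4% in IFNb and 2.62% in saline. Il6 rose by 6.57 ± 0.25 in LPS against saline (adjusted p = 6.34e-06) and by 7.41 ± 0.25 in LPS+IFNb against saline (adjusted p = 2.38e-06). IFNb alone also raised it, by 2.55 ± 0.25 (adjusted p = 0.000417), or 4.02 with a pseudocount of 0.1 in place of 1. Il6 was the 1 member higher in IFNb against saline, where 13.0% of all genes were higher and 38.6% lower (51.6% called).

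IFNb before LPS went with more Il6 than LPS alone. The difference between LPS+IFNb and LPS was 0.84 ± 0.25 (adjusted p = 0.0413), a ratio of mean TPM of 1.82, in a comparison where 10.8% of all genes were higher. The call was lost without any 1 of the 4 libraries compared: without LPS+IFNb replicate 1 the difference was 0.65 (adjusted p = 0.194), without LPS+IFNb replicate 2 it was 1.04 (adjusted p = 0.0635), without LPS replicate 1 it was 0.86 (adjusted p = 0.131) and without LPS replicate 2 it was 0.83 (adjusted p = 0.139). The call was also lost with a pseudocount of 0.1 (0.85 ± 0.47, adjusted p = 0.205) and with no filter on low values (adjusted p = 0.1). The same held with no intensity trend in limma (adjusted p = 0.0520) and with replicate number as a block (adjusted p = 0.058). Median-ratio scaling kept it (1.12 ± 0.24, adjusted p = 0.0149). In 3 of the 4 groups, LPS being the exception, the library with more Il6 also had more of the mesothelial and fibroblast markers. With the log2 sum of those markers as a covariate the difference was 0.91 ± 0.17 (adjusted p = 0.0121). In TPM, the LPS+IFNb mean of 237 stood above 137, the saline mean plus the separate LPS and IFNb increments over it. On the log scale the order was the other way: the rise with LPS was 4.86 ± 0.25 after IFNb (LPS+IFNb against IFNb, adjusted p = 6.06e-05) and 6.57 without IFNb. The difference between these rises, the interaction, was -1.71 ± 0.36 (adjusted p = 0.0377), where 4.45% of all genes had a negative interaction and 3.51% a positive one. With a pseudocount of 0.1 it was -3.17 (adjusted p = 0.0406), so its size depends on the constant added to the low saline values. It stayed negative without any 1 library (-2.0025 to -1.42), but the call was lost without any of the LPS+IFNb or LPS libraries, IFNb replicate 1 or Saline replicate 1 (adjusted p of 0.0706 to 0.121). The monocyte and small peritoneal macrophage markers were higher in both groups that received IFNb, and their part in these differences was not tested.

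Lif and Osm lie beside each other on the plus strand of chromosome 11 with 16531 bases between them, Osm at chr11:4236420-4241026 and Lif at chr11:4257557-4272514. Lif encodes leukemia inhibitory factor, which keeps mouse embryonic stem cells undifferentiated.

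Lif was at 14.0 and 14.2 TPM in LPS+IFNb, 28.9 and 21.02 TPM in LPS, 0.444 and 0.499 TPM in IFNb and 0.108 and 0.233 TPM in saline. The groups did not overlap, and LPS alone gave the highest level. Lif rose by 4.46 ± 0.18 in LPS against saline (adjusted p = 7.75e-06), by 3.69 ± 0.18 in LPS+IFNb against saline (adjusted p = 1.16e-05) and by 3.36 ± 0.18 in LPS+IFNb against IFNb (adjusted p = 6.56e-05). IFNb alone had a difference from saline of 0.33 ± 0.18 (adjusted p = 0.162), 1.12 with adjusted p = 0.0194 at a pseudocount of 0.1, and 0.09 with adjusted p = 0.689 over transcripts of at least 500 nt.

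With IFNb before LPS, Lif was lower than with LPS alone. The difference between LPS+IFNb and LPS was -0.77 ± 0.18 (adjusted p = 0.0180), opposite in sign to that of Il6, in a comparison where 24.1% of all genes were lower. Scaled by the median ratio it was -0.51 (adjusted p = 0.0803). The call was also lost without LPS+IFNb replicate 1 (-0.76, adjusted p = 0.0826), without LPS+IFNb replicate 2 (-0.78, adjusted p = 0.0737) or without LPS replicate 1 (-0.55, adjusted p = 0.0979). The TPM of Il6 was 19.3 and 14.4 times that of Lif in the LPS+IFNb libraries and 4.55 and 6.15 times in the LPS libraries, with no overlap. The ratio was 20.2 and 11.3 in the IFNb libraries, a range that spans that of LPS+IFNb, and 1.56 and 2.73 in saline. In the interaction Lif had -1.10 ± 0.25 (adjusted p = 0.0494), the rise with LPS being 3.36 after IFNb and 4.46 without it. That call was lost without any 1 library other than LPS replicate 2 (-1.18 to -0.88, adjusted p of 0.0726 to 0.148), with median-ratio scaling (-0.90, adjusted p = 0.0938) and with the marker covariate (-1.12, adjusted p = 0.0599). With a pseudocount of 0.1 the interaction was -1.92 (adjusted p = 0.0448). Its 390 nt noncoding transcript Lif-203 held 17.8% and 18.4% of the Lif TPM in LPS+IFNb and 18.5% and 22.6% in LPS, but 53.3% and 41.9% in IFNb and 0% in saline. Nearly all the rest was in the coding transcript Lif-201, whose IFNb libraries (0.207 and 0.290 TPM) overlapped those of saline (0.108 and 0.233 TPM).

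Osm encodes oncostatin M, a cytokine of activated macrophages and T cells. Osm was at 7.89 and 7.01 TPM in LPS+IFNb, 7.74 and 6.22 TPM in LPS, 4.43 and 3.76 TPM in IFNb and 3.11 and 3.06 TPM in saline. The LPS+IFNb and LPS libraries overlapped and the other groups did not. Osm rose by 0.96 ± 0.15 in LPS against saline (adjusted p = 0.00258) and by 1.05 ± 0.15 in LPS+IFNb against saline (adjusted p = 0.00100), where its neighbour Lif rose by 4.46 and 3.69. The difference was 0.09 ± 0.15 between LPS+IFNb and LPS (adjusted p = 0.702), and between IFNb and saline it was 0.32 ± 0.15 (adjusted p = 0.129; 0.60 with adjusted p = 0.0283 scaled by the median ratio). Osm was also higher in LPS+IFNb than in IFNb, by 0.73 ± 0.15 (adjusted p = 0.0120), and in LPS than in IFNb, by 0.64 ± 0.15 (adjusted p = 0.0170). The first of these calls was lost without LPS+IFNb replicate 1 (0.66, adjusted p = 0.0687) or IFNb replicate 2 (0.64, adjusted p = 0.0756), and the second without LPS replicate 1 (0.51, adjusted p = 0.0995) or IFNb replicate 2 (0.55, adjusted p = 0.0983). Its interaction was -0.23 ± 0.22 (adjusted p = 0.600).

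None of the other tested genes within 100 kb of Osm or Lif was higher in LPS than in saline, where 12.8% of all genes were. Castor1, an arginine sensor of the mTORC1 pathway that lies 14011 bases before Osm, was at 0.375 and 0.511 TPM in LPS+IFNb, 1.01 and 0.972 TPM in LPS, 0.539 and 0.543 TPM in IFNb and 1.88 and 2.22 TPM in saline, and fell by 0.61 ± 0.17 in LPS against saline (adjusted p = 0.0224). Both tested neighbours of Il6 had negative differences in LPS against saline, where the median of all genes was -0.38. Hadha, a subunit of the mitochondrial enzyme of fatty acid oxidation, lies 98323 bases from it and fell by 0.63 ± 0.11 in LPS against saline (adjusted p = 0.00411). Tyms, thymidylate synthase, lies 38221 bases after Il6 and had -0.45 ± 0.20 in LPS against saline (adjusted p = 0.105).

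Il6ra encodes the IL-6 binding chain of the receptor and lies on the minus strand at chr3:89864059-89913196. The 250 bases before its RefSeq start, chr3:89913197-89913446 on the minus strand, are shown as those of a member that fell, with capitals for the same motifs.
Il6ra: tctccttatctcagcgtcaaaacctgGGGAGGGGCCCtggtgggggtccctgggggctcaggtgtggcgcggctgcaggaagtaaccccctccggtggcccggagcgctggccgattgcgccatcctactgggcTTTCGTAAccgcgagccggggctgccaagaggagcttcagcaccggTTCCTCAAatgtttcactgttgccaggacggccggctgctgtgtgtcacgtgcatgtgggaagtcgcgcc
This window had 2 overlapping matches to the looser NF-kB motif and 2 to the C/EBP motif, and none to the strict NF-kB motif, AP-1, CRE, ISRE or GAS. G and C made up 65.2% of it and 42.8% of the Il6 window, and the median of all promoters was 52.4%. The promoter window of Il6st had no match to any of these motifs. The Lif window, chr11:4257318-4257567 and not printed, had 4 matches to the looser NF-kB motif. It also had 1 match to AP-1 (TGACTCA at -228 to -222) and none to the other motifs. This window lies at the start of Lif-202, which was at 0 to 0.331 TPM, while Lif-201 starts at chr11:4267095. Looser NF-kB letters were thus in Il6, Lif and Il6ra, C/EBP letters in Il6 and Il6ra, and AP-1 letters in Il6 and Lif. Any link of these letters to the direction of change was not tested. RefSeq promoters were matched for 4 of the 5 members, Osm being the one without.

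Il6ra was at 5.12 and 5.91 TPM in LPS+IFNb, 4.24 and 3.98 TPM in LPS, 17.9 and 20.8 TPM in IFNb and 21.7 and 32.1 TPM in saline. The 4 libraries that received LPS all lay below the 4 that did not. Il6ra fell to 4.11 ± 0.182 TPM in LPS, against 26.9 ± 7.40 TPM in saline (SD, n = 2 each), a difference of -2.42 ± 0.20 (adjusted p = 0.000181), and -1.99 scaled by the median ratio (adjusted p = 0.000163). The difference was -2.08 ± 0.20 in LPS+IFNb against saline (adjusted p = 0.000156) and -1.64 ± 0.20 in LPS+IFNb against IFNb (adjusted p = 0.00171). Its fall in LPS was larger than the difference of 96.5% of all genes, taken without sign.

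Il6ra was lower with LPS than with IFNb, a difference of -1.99 ± 0.20 (adjusted p = 0.000359). IFNb against saline had -0.43 ± 0.20 (adjusted p = 0.107), close to the median of all genes, -0.37, and -0.71 with adjusted p = 0.0163 without Saline replicate 1. LPS+IFNb against LPS had 0.35 ± 0.20 (adjusted p = 0.219), or 0.58 scaled by the median ratio (adjusted p = 0.0450). The interaction was 0.78 ± 0.28 (adjusted p = 0.155), or 1.06 with adjusted p = 0.0415 without Saline replicate 1. The TPM of Il6 was 52.7 and 34.6 times that of Il6ra in LPS+IFNb, 31.01 and 32.4 times in LPS, 0.4997 and 0.271 times in IFNb and 0.00778 and 0.0198 times in saline, so the ligand's transcript exceeded that of its receptor chain in the libraries that received LPS and in no other. Of the 5 tested neighbours of Il6ra 3 were lower in LPS against saline, where 41.3% of all genes were lower. These were 4632404H12Rik (-0.81 ± 0.18, adjusted p = 0.00950), Ube2q1 (-0.50 ± 0.09, adjusted p = 0.00361) and Ubap2l (-0.33 ± 0.10, adjusted p = 0.0316). The others were not called.

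Il6st encodes gp130 and lies on the plus strand at chr13:112464070-112510086. Summed over its 10 transcripts, Il6st was at 91.1 and 78.5 TPM in LPS+IFNb, 126 and 82.5 TPM in LPS, 208 and 128 TPM in IFNb and 215 and 229 TPM in saline. The LPS+IFNb and LPS libraries overlapped, and both groups lay below saline. The difference was -1.11 ± 0.27 in LPS against saline (adjusted p = 0.0135), -1.38 ± 0.27 in LPS+IFNb against saline (adjusted p = 0.00367) and -0.94 ± 0.27 in LPS+IFNb against IFNb (adjusted p = 0.0347). Scaled by the median ratio these were -0.65 (adjusted p = 0.103), -0.65 (adjusted p = 0.0851) and -0.60 (adjusted p = 0.163), and none was called. The call in LPS against saline was also lost without LPS replicate 2 (-0.81, adjusted p = 0.0695) or Saline replicate 2 (-1.07, adjusted p = 0.0575), and that in LPS+IFNb against IFNb without LPS+IFNb replicate 1 (-1.05, adjusted p = 0.0906), LPS+IFNb replicate 2 (-0.83, adjusted p = 0.138) or IFNb replicate 1 (-0.59, adjusted p = 0.1496), and with the marker covariate (-0.92, adjusted p = 0.0535). IFNb against saline had -0.44 ± 0.27 (adjusted p = 0.215), LPS+IFNb against LPS -0.27 ± 0.27 (adjusted p = 0.491) and LPS against IFNb -0.67 ± 0.27 (adjusted p = 0.0983), the last called without IFNb replicate 2 (-1.02, adjusted p = 0.0372).

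Most of this Il6st TPM was assigned to a very short transcript. Il6st-202 is 201 nt long and held 67.0% to 83.9% of the Il6st TPM of a library. TPM is corrected for transcript length, so at equal TPM a short transcript has fewer reads than a long one. The share of TPM is thus not a share of reads, which is unknown. It joins the exon with the start codon to the last exons of the gene, leaving out 12 exons of the long transcript Il6st-203 (exons 4 to 15, 1867 nt in all). Its 3 exons lie at chr13:112475046-112475109, chr13:112502791-112502872 and chr13:112503705-112503759 on the plus strand (GENCODE M21). The sequence is shown because it holds most of the TPM of the gene, with 10 bases on each side of the first exon junction in capitals.
Il6st-202: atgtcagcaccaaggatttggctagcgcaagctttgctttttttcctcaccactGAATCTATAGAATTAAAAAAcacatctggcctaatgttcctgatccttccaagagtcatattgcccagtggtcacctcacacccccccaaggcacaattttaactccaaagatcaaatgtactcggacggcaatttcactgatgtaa
Of its 171 stretches of 31 bases, 141 also occur in the long transcripts Il6st-201 or Il6st-203 and 30, those across this junction, are in no other Il6st transcript. None occurs in a transcript of another gene. Whether reads of the long transcripts were assigned to Il6st-202 was not tested, and the level of the whole gene depends on that assignment.

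The long transcripts gave a lower level, with closer replicates than Il6st-202 in every group but saline. Il6st-201 (5207 nt) and Il6st-203 (8678 nt) together were at 21.1 and 20.2 TPM in LPS+IFNb, 19.5 and 21.7 TPM in LPS, 30.1 and 30.7 TPM in IFNb and 40.9 and 51.6 TPM in saline. LPS+IFNb and LPS overlapped, IFNb stood between them and saline, and no IFNb library reached a saline one. Il6st-202 was at 67.7 and 52.6 TPM in LPS+IFNb, 96.1 and 58.7 TPM in LPS, 174 and 96.7 TPM in IFNb and 174 and 175 TPM in saline, so the wide spread of the IFNb group came from this transcript. When genes were summed over transcripts of at least 500 nt, a choice made after seeing these values, Il6st fell by 1.09 in LPS against saline (adjusted p = 0.000412) and by 1.11 in LPS+IFNb against saline (adjusted p = 0.000199). The difference between LPS+IFNb and IFNb was then -0.53 (adjusted p = 0.0152), and 2 comparisons passed that had not done so with all transcripts, IFNb against saline at -0.58 (adjusted p = 0.00753) and LPS against IFNb at -0.51 (adjusted p = 0.0163). With Il6st-202 alone left out and the other short transcripts kept, a setting also added after seeing the data, these 3 differences were -0.38 (adjusted p = 0.118), -0.54 (adjusted p = 0.0344) and -0.26 (adjusted p = 0.265), so the calls between the LPS groups and IFNb rested on which short transcripts were counted.

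**Figure D2:**
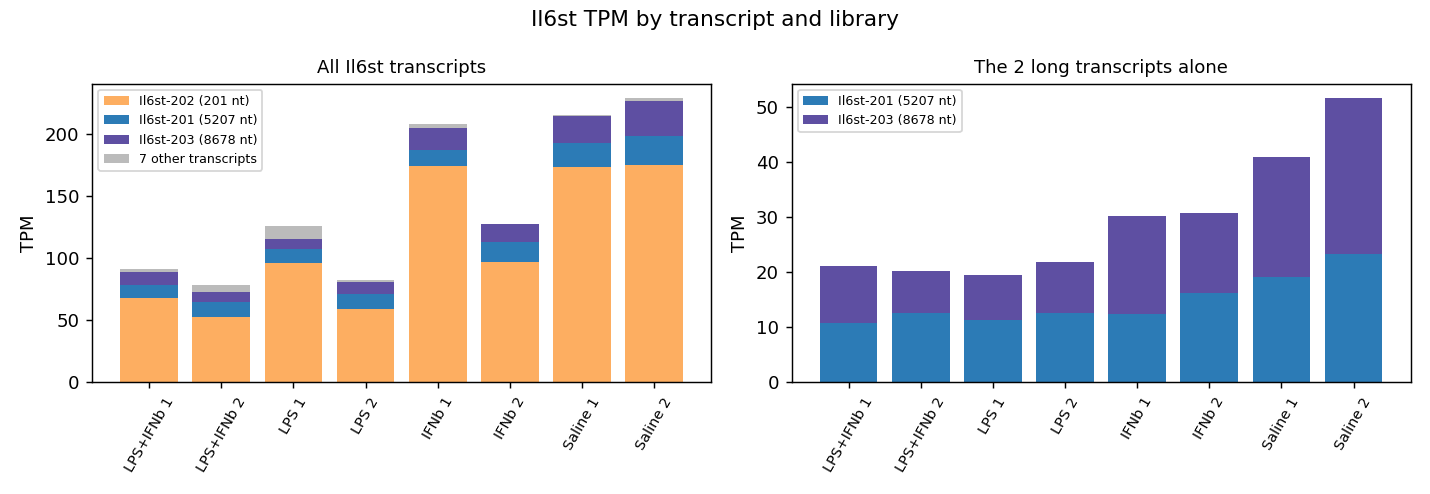
TPM of the Il6st transcripts in each library, stacked for all 10 transcripts (left) and for the long transcripts Il6st-201 and Il6st-203 alone (right). Il6st-202, 201 nt long, fills most of each bar on the left, and on the right the saline libraries stand at 40.9 and 51.6 TPM above all 6 others.

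Ankrd55, an ankyrin repeat gene 80068 bases before Il6st, was lower after LPS too, at 1.29 and 0.935 TPM in LPS+IFNb, 0.844 and 0.634 TPM in LPS, 4.81 and 4.45 TPM in IFNb and 5.91 and 5.05 TPM in saline. Its difference was -1.90 ± 0.17 in LPS against saline (adjusted p = 0.000263). Ddx4, an RNA helicase of germ cells 88247 bases after Il6st, was at 4.19 and 6.34 TPM in LPS+IFNb, 0.243 and 0.367 TPM in LPS, 13.7 and 16.4 TPM in IFNb and 0.308 and 0.313 TPM in saline, and rose by 3.61 ± 0.21 in IFNb against saline (adjusted p = 3.58e-05).

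**Figure D3:**
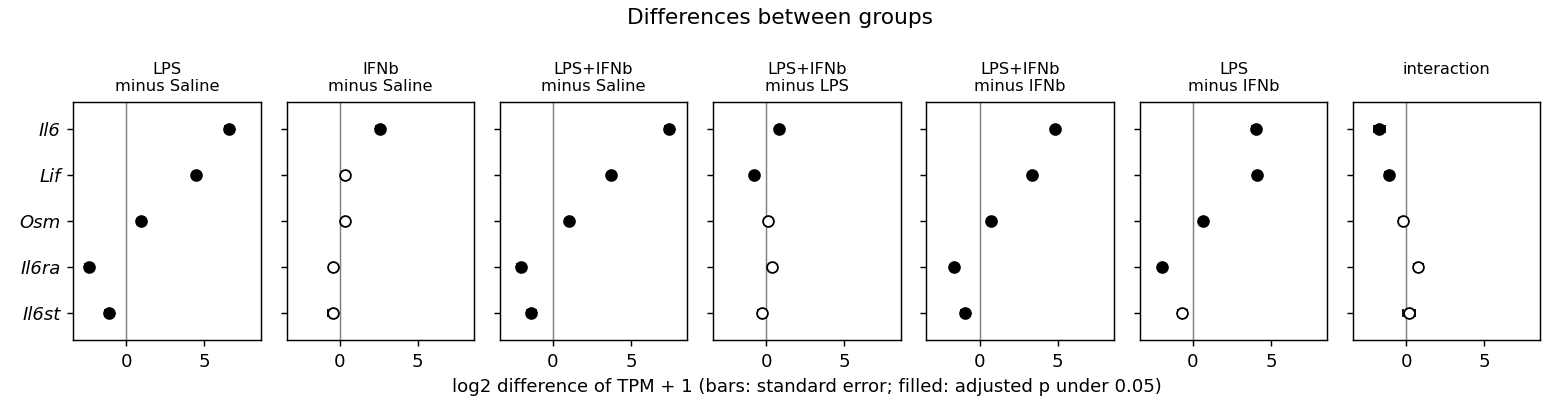
Log2 difference of TPM + 1 with its standard error (bars) for the 5 members in 6 comparisons of groups and the interaction, the difference between the LPS effects with and without IFNb. Filled points have an adjusted p under 0.05; in LPS+IFNb minus LPS, Il6 lies at 0.84 and Lif at -0.77.

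The remaining comparisons put these differences side by side. In LPS+IFNb against IFNb 3 members were higher and 2 lower, where 8.76% of all genes were higher and 30.5% lower (39.3% called). In LPS against IFNb, Il6 (4.02 ± 0.25, adjusted p = 5.46e-05), Lif (4.12 ± 0.18, adjusted p = 1.34e-05) and Osm were higher and Il6ra lower, where 16.6% of all genes were higher and 22.1% lower (38.7% called). In LPS+IFNb against LPS 1 member was higher and 1 lower (34.8% of all genes called), and 2 of the 5 had a negative interaction (7.96% of all genes called).

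The genes whose pattern was most like that of a member were ranked by Pearson's r of log2(TPM + 1) over the 8 libraries among 7717 genes with at least 10 TPM in a group. These libraries fall into 4 groups, so r mostly measures the order of the groups. Nearest to Il6 were the transcription factor Ets2 (r = 0.998), Hif1a (0.996), the kinase Pim1 (0.994) and Ralgds (0.993). Nearest to Lif were Bcl2a1d (0.998), Sod2 (0.997), the growth factor receptor Met (0.996) and Spata13 (0.996). Sod2 was at 241 and 237 TPM in LPS+IFNb and 312 and 314 TPM in LPS, the order that Lif had. Nearest to Osm were Ets2 (0.986), Ktn1 (0.982), Srgn (0.982) and Magohb (0.981), to Il6ra Wipf1 (0.997), Fam83f (0.995), the kinase Fes (0.994) and Dnajc14 (0.994), and to Il6st Fra10ac1 (0.975), Cyb5r4 (0.972), Oxsm (0.968) and Smim19 (0.967).

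Among the other cytokines of the family, 4 of 9 were tested. Il27, the p28 subunit of IL-27, followed the order of Il6, at 404 and 460 TPM in LPS+IFNb, 224 and 197 TPM in LPS, 31.1 and 38.3 TPM in IFNb and 0.965 and 0.421 TPM in saline. It rose by 6.98 ± 0.18 in LPS against saline (adjusted p = 1.57e-06) and by 1.03 ± 0.18 in LPS+IFNb against LPS (adjusted p = 0.00684). Its partner subunit Ebi3 rose by 1.56 ± 0.14 in LPS against saline (adjusted p = 0.000259). Clcf1, a ligand of the CNTF receptor, was at 28.4 and 28.2 TPM in LPS+IFNb, 28.5 and 25.7 TPM in LPS, 1.22 and 1.22 TPM in IFNb and 0.889 and 1.78 TPM in saline, and rose by 3.61 ± 0.19 in LPS against saline (adjusted p = 2.88e-05). Cntf fell in that comparison (-0.86 ± 0.19, adjusted p = 0.00966).

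Of 6 other receptor chains 4 were tested, of which 1 was higher and 1 lower in LPS against saline (all genes: 12.8% higher, 41.3% lower). Il11ra1, the IL-11 binding chain, was at 53.1 and 59.2 TPM in LPS+IFNb, 88.1 and 86.9 TPM in LPS, 96.1 and 90.1 TPM in IFNb and 186 and 157 TPM in saline, a difference of -0.96 ± 0.11 in LPS against saline (adjusted p = 0.000634) and of -0.63 ± 0.11 in LPS+IFNb against LPS (adjusted p = 0.00587). Lifr, the LIF binding chain, was at 2.81 and 2.48 TPM in LPS+IFNb, 3.26 and 3.15 TPM in LPS, 0.680 and 0.791 TPM in IFNb and 1.5035 and 1.38 TPM in saline. Lifr rose by 0.78 ± 0.15 in LPS against saline (adjusted p = 0.00542) and fell by 0.49 ± 0.15 in IFNb against saline (adjusted p = 0.0327). Osmr, the OSM binding chain, had 0.53 ± 0.35 in LPS against saline (adjusted p = 0.234).

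**Figure D4:**
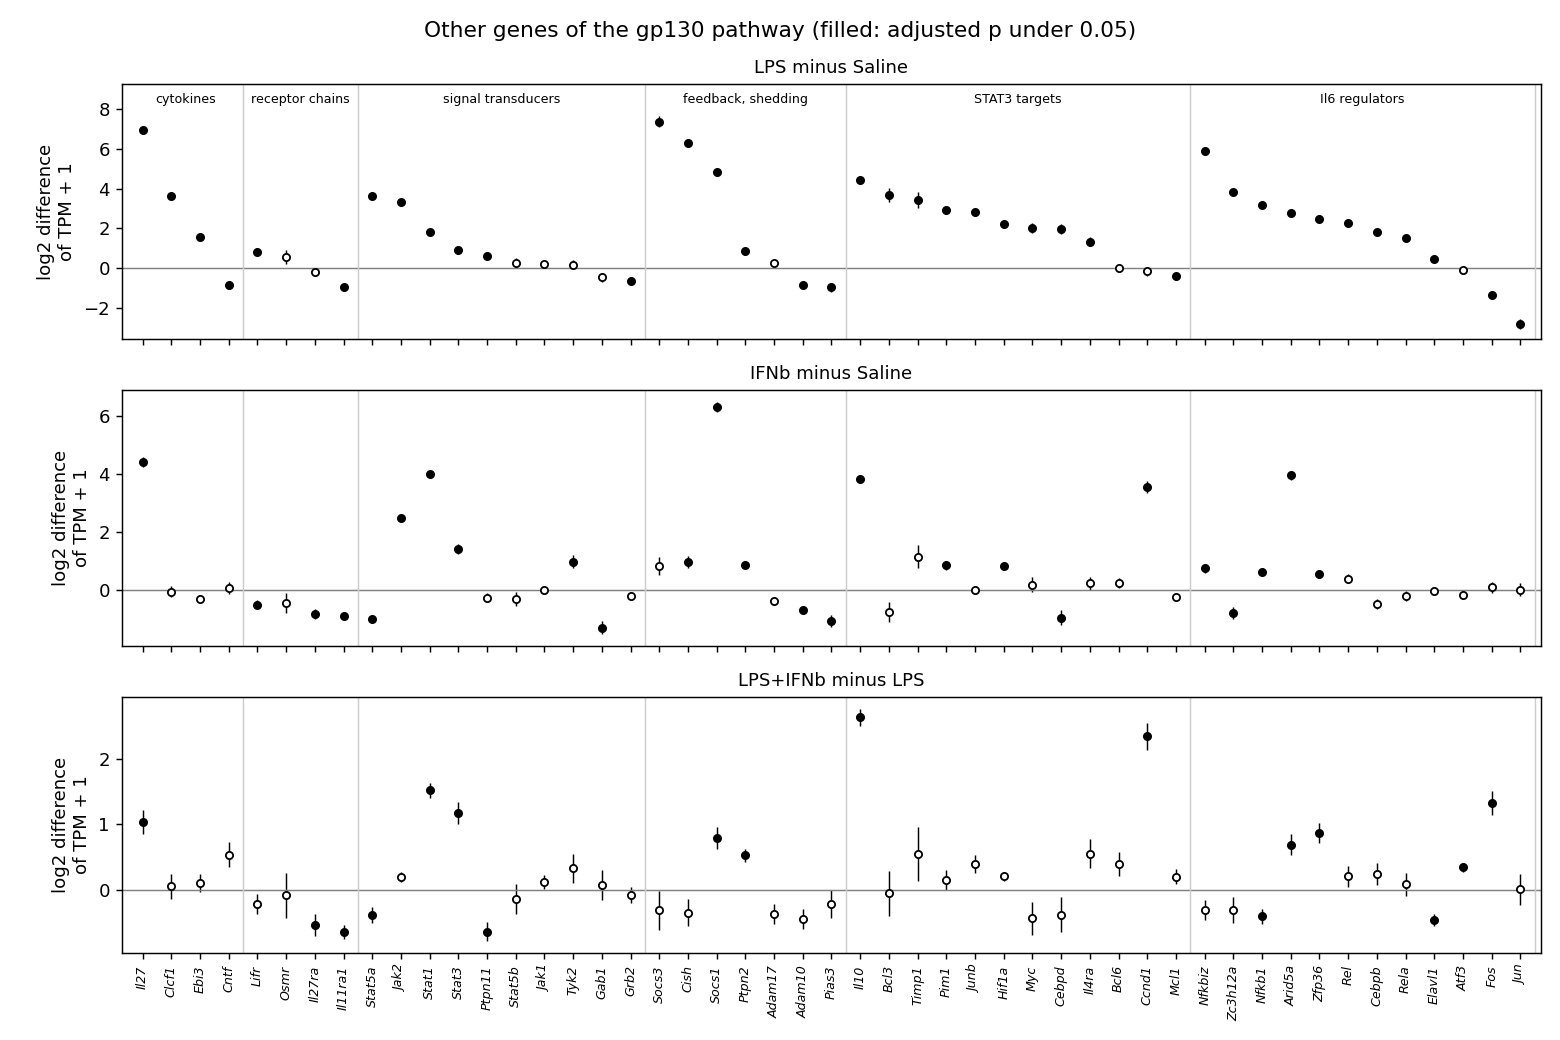
Log2 difference of TPM + 1 with its standard error for 49 tested genes of the gp130 pathway other than the members, in 6 lists, in LPS minus saline (top), IFNb minus saline (middle) and LPS+IFNb minus LPS (bottom). Filled points have an adjusted p under 0.05; Socs3 stands at 7.39 in the top panel and Socs1 at 6.30 in the middle one.

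Of 49 tested pathway genes, 31 were higher and 8 lower in LPS against saline (all genes: 12.8% higher, 41.3% lower). The median difference was 1.53, beside -0.38 for all genes. In IFNb against saline 16 were higher and 9 lower, where 13.0% of all genes were higher and 38.6% lower (51.6% called). The median was 0.02, and -0.37 for all genes. In LPS+IFNb against LPS 11 were higher and 6 lower, where 10.8% of all genes were higher and 24.1% lower (34.8% called). The median was 0.11, and -0.22 for all genes. In both of these comparisons the number called in either direction was close to the share called among all genes. Of 10 signal transducers 5 were higher and 1 lower in LPS against saline, led by the kinase Jak2 (3.33 ± 0.08, adjusted p = 1.10e-06) and Stat5a (3.61 ± 0.12, adjusted p = 3.11e-06). Stat3, the main STAT of gp130, was at 266 and 316 TPM in LPS+IFNb, 118 and 139 TPM in LPS, 192 and 175 TPM in IFNb and 58.6 and 79.7 TPM in saline. It rose by 0.90 ± 0.17 in LPS against saline (adjusted p = 0.00522), by 1.41 ± 0.17 in IFNb against saline (adjusted p = 0.000989) and by 1.17 ± 0.17 in LPS+IFNb against LPS (adjusted p = 0.00335). Jak1, the kinase most needed by gp130, had 0.19 ± 0.10 in LPS against saline (adjusted p = 0.158).

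Of 7 feedback and receptor shedding genes 4 were higher and 2 lower in LPS against saline (all genes: 12.8% higher, 41.3% lower). Socs3, the inhibitor that binds gp130, was at 763 and 1105 TPM in LPS+IFNb, 1082 and 1191 TPM in LPS, 13.1 and 9.31 TPM in IFNb and 4.20 and 7.85 TPM in saline. Socs3 rose by 7.39 ± 0.30 in LPS against saline (adjusted p = 7.95e-06), and had 0.83 ± 0.30 in IFNb against saline (adjusted p = 0.0546) and -0.31 ± 0.30 in LPS+IFNb against LPS (adjusted p = 0.472). Socs1, which blocks the JAK kinases of interferon receptors, was at 77.4 and 79.0 TPM in LPS+IFNb, 43.8 and 45.5 TPM in LPS, 125 and 128 TPM in IFNb and 0.344 and 0.936 TPM in saline. Socs1 had the order IFNb, LPS+IFNb and LPS, with a difference of 0.80 ± 0.17 between LPS+IFNb and LPS (adjusted p = 0.0126). Of the sheddases that release the IL-6 binding chain from cells, Adam10 fell by 0.88 ± 0.15 in LPS against saline (adjusted p = 0.00291), and Adam17 had 0.27 ± 0.15 (adjusted p = 0.169).

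Of 12 STAT3 target genes 9 were higher and 1 lower in LPS against saline (all genes: 12.8% higher, 41.3% lower). In IFNb against saline 4 were higher and 1 lower (all genes: 13.0% higher, 38.6% lower). Il10, the anti-inflammatory cytokine, rose by 4.43 ± 0.13 in LPS against saline (adjusted p = 2.62e-06) and by 2.63 ± 0.13 in LPS+IFNb against LPS (adjusted p = 9.94e-05). The cell cycle gene Ccnd1 was at 12.4 and 16.9 TPM in LPS+IFNb, 2.02 and 2.09 TPM in LPS, 35.3 and 43.4 TPM in IFNb and 2.96 and 2.02 TPM in saline, with a rise of 3.54 ± 0.21 in IFNb against saline (adjusted p = 3.89e-05). These genes have inducers other than STAT3.

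Of 12 regulators of Il6 transcription and of its mRNA 9 were higher and 2 lower in LPS against saline (all genes: 12.8% higher, 41.3% lower). Nfkbiz, the nuclear IkB protein needed for Il6 induction, was at 278 and 279 TPM in LPS+IFNb, 361 and 324 TPM in LPS, 9.51 and 8.298 TPM in IFNb and 4.03 and 5.76 TPM in saline (5.88 ± 0.15 in LPS against saline, adjusted p = 1.56e-06). Zc3h12a, which encodes the nuclease Regnase-1 that degrades Il6 mRNA, rose by 3.82 ± 0.20 in LPS against saline (adjusted p = 2.62e-05) and fell by 0.79 ± 0.20 in IFNb against saline (adjusted p = 0.0163). Arid5a, which protects Il6 mRNA from Regnase-1, was at 96.5 and 96.2 TPM in LPS+IFNb, 52.2 and 66.9 TPM in LPS, 141 and 133 TPM in IFNb and 6.91 and 8.98 TPM in saline. Arid5a rose by 3.96 ± 0.16 in IFNb against saline (adjusted p = 6.38e-06) and by 0.69 ± 0.16 in LPS+IFNb against LPS (adjusted p = 0.0156). Zfp36, the decay factor tristetraprolin, rose by 0.87 ± 0.15 in LPS+IFNb against LPS (adjusted p = 0.00630). The AP-1 subunit genes Jun and Fos were lower in LPS than in saline (-2.83 ± 0.24, adjusted p = 0.000206, and -1.39 ± 0.19, adjusted p = 0.00132).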

How the data were processed

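RNA sequencing of 8 macrophage libraries, 2 in each of 4 groups, was used as deposited; groups and replicate numbers came from the sample titles. The authors deposited TPM for 88198 Ensembl transcripts per library, made with kallisto and the mm10 build per the submitters' processing notes; its version, its options and the transcript set were not given in the sources used here. Depth is unknown, so no counting error can be given. Transcripts were matched to GENCODE M21 on GRCm38 (86119 matched; the other 2079, with 1.01% to 1.95% of a library's TPM, were left out) and summed per gene.

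limma 3.58.1 under R 4.3.3 was fitted to log2(TPM + 1) of 13009 genes in all 8 libraries, with 1 mean per group, an intensity trend and, as a remainder, 4 residual degrees of freedom. Two-sided p-values were adjusted by Benjamini-Hochberg over all genes of a comparison, with a call under 0.05. The model was tested on simulated data. Il6 and Il6ra each have 1 transcript in the files (of 4 and 2 annotated). Promoters are from RefSeq (GRCm38.p6). Members, lists and the naming rule (all members, up to 3 called genes per list, direction and comparison by adjusted p, the 4 most alike genes, neighbours within 100 kb) were chosen with earlier results of these data known; Jak1 and Osmr were named for their role after their values were seen. Alternatives are given in the closing section.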

Additional observations from a re-analysis of the deposited data

Results flagged for a closer look

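The change with LPS had a called difference between macrophages with and without IFNb before it in 2 of the 5 members, by a test of the difference itself (limma on log2(TPM + 1), adjusted over all genes), where 7.96% of all genes were called and 4.45% were negative. For Il6 the rise with LPS was 4.86 after IFNb and 6.57 without IFNb, a difference of -1.71 (adjusted p = 0.0377). For Lif the rise was 3.36 after IFNb and 4.46 without it, a difference of -1.10 (adjusted p = 0.0494). Both kept their sign when 1 library was left out, but the Il6 call was lost without any of 6 of the 8 libraries and the Lif call without any of 7 of them.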

How the results depend on the processing

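Of the members' differences under the alternatives tried, 60 lost the call, 9 gained one and 5 changed sign. The 5 were differences that had not been called. Osm in LPS+IFNb against LPS ran from -0.051 to 0.22 when 1 library was left out. Il6st in that comparison ran from -0.57 to 0.036, and was 0.0022 with median-ratio scaling, while its interaction ran from -0.17 to 0.53. Members called in IFNb against saline numbered 1, and 2 with median-ratio scaling, with a pseudocount of 0.1, with transcripts of at least 500 nt or without Il6st-202; leaving out 1 library gave 1 to 2. In LPS+IFNb against LPS 2 were called, but 0 with a pseudocount of 0.1 or at an adjusted p under 0.01, 1 with no filter on low values or no intensity trend, and 0 to 2 without 1 library. In LPS+IFNb against IFNb 5 were called, 3 at an adjusted p under 0.01, and 3 to 5 without 1 library. The interaction was called in 2, in 1 with median-ratio or upper-quartile scaling, protein-coding transcripts only, transcripts of at least 500 nt or the marker covariate, in 0 with no filter or at an adjusted p under 0.01, and in 0 to 1 without 1 library. Pathway genes called in LPS+IFNb against LPS numbered 17, 9 at an adjusted p under 0.01 and 10 to 18 without 1 library; for the interaction they numbered 12, 5 at an adjusted p under 0.01, 7 with no intensity trend and 5 to 13 without 1 library. The cause of these changes was not tested. Same-numbered libraries share only a number (correlations of their deviations from -0.156 to 0.141); with the replicate block 1 member was called in LPS+IFNb against LPS and 0 in the interaction. Transcript length sums, marker covariate and Il6st-202 settings were chosen after seeing the data. With 2 libraries a group and depth unknown, small differences of low genes such as Osm have limited precision.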
